A study of Mus musculus with 768 samples.

Results

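The mu opioid receptor gene Oprm1, 1 of the 24489 genes counted, was followed through every kept nucleus of the series. It was chosen by its name, with earlier results of these data known. Nuclei of mouse striatum had been sequenced singly in 768 wells, shared equally by 2 genotypes on a C57BL/6 background. All animals were untreated and carried H2BG, joined either to Oprm1-Cre, a driver used to reach neurons of the patches, or to Slc32a1-Cre, a driver used to reach GABAergic neurons. A Cre driver acts wherever its promoter is or was active, which need not match the RNA present in a nucleus when it is sequenced. The labels name no ages and no animals, so each genotype was 1 plate and 1 sample, and plate, animals, sex and genotype cannot be told apart. Nuclei are not replicates, no test between genotypes was possible, and no p-value was computed. Every 95% interval below is exact for its counts and covers counting error only. The counts are reads without molecular identifiers, so copies of 1 molecule can count as several reads. Intervals of levels in reads may therefore be too narrow, most of all where few nuclei hold the reads.

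The mu opioid receptor is a receptor of the cell surface that couples to inhibitory G proteins of the Gi/o family. It is activated by enkephalins, endorphins and morphine, it lowers cyclic AMP, and it acts on potassium and calcium channels. In the striatum its dense patches of binding mark the patches or striosomes, which are embedded in the receptor-poor matrix. Spiny projection neurons (SPNs) are the principal cells of both compartments and fall into D1 neurons, which carry the dopamine receptor Drd1, and D2 neurons, which carry Drd2 and the enkephalin precursor Penk.

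In mm10, GENCODE places Oprm1 on the plus strand of chromosome 10 from 6758506 to 7038198. RefSeq starts differ from this, and the first window below ends at 6758592, inside that span. The RefSeq table lists starts of Oprm1 at separate positions within it, and the windows of 250 bases upstream of 2 of them are shown because the deposited counts pool the transcripts of all starts into a single value (build GRCm38.p6, plus strand, chr10:6758343-6758592 and chr10:6788320-6788569).
Distal start of Oprm1: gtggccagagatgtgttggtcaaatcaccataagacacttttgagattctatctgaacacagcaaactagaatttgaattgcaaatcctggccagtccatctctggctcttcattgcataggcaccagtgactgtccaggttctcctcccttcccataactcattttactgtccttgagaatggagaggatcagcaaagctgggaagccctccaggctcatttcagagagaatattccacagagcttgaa
Proximal start of Oprm1: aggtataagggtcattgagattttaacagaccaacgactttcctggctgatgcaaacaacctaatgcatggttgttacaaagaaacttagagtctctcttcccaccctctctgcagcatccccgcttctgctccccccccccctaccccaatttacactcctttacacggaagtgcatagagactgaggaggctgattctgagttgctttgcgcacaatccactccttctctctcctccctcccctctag
Neither window held, on either strand, the core promoter letters TATAAA, which 12.4% of all 32851 windows of that length hold. The same was true of the Sp-factor letters GGGCGG, held by 32.7% of windows, and of the cyclic AMP response element TGACGTCA, held by 1.55%. This says only that these letters are missing there. G and C made up 45.6% of the distal window and 50% of the proximal one. Distal and proximal give here only the order of these 2 starts along the gene and name no known promoter.

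Too few reads or genes left out 29 Oprm1-Cre wells and 3 Slc32a1-Cre wells, and 736 nuclei were kept, of which 667 were D1-like or D2-like. Of these, 495 were D1-like, 300 of them Oprm1-Cre nuclei, and 24 of the D2-like ones were Oprm1-Cre nuclei. Reads of Oprm1 were found in 29.9% of kept Oprm1-Cre nuclei (95% interval 25.1 to 34.9) and in 4.2% of kept Slc32a1-Cre nuclei (2.42 to 6.73). Of 2530 such reads in all, 2301 were in the Oprm1-Cre plate, and the wells left out held 0. The median kept nucleus had 3761 genes with a read in the first plate and 3424 in the second. The sex-linked genes differed: Eif2s3y, a Y-linked gene, was read in 74.7% of Oprm1-Cre D1-like nuclei and in 0 of the Slc32a1-Cre ones, where a limit of 3 nuclei allows up to 1.54%, and Xist, read from the inactive X, in 2.33% and 71.3%.

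Oprm1-Cre D1-like nuclei carried most of the Oprm1 reads of the series. Their 300 nuclei summed to 2164 reads, or 39.1 reads per 1000000 reads on genes (CPM, 95% interval 37.5 to 40.8). A read was found in 95 nuclei, or 31.7% (26.4 to 37.3). With each nucleus thinned at random to 50000 reads, so that depth was equal, and 2 nuclei below that depth left out, it was found in 86 nuclei, or 28.9% (23.8 to 34.4). The reads of Drd1 summed to 1829 CPM in this class and those of Drd2 to 5.15 CPM, and each nucleus held Drd1 reads.

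The amount per nucleus ranged widely. Among the 95 nuclei, the lowest had 1 read of Oprm1 and the median 15 reads, and the level ran from 4.26 through a median of 59.5 to 565.9 CPM. There were 15 nuclei with 1 or 2 reads and 56 with over 10. The 5 nuclei with the most reads held 25.9% of all reads of the class, so that the summed level leans on few nuclei. Without those 5 it was 29.8 CPM.

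**Figure D1:**
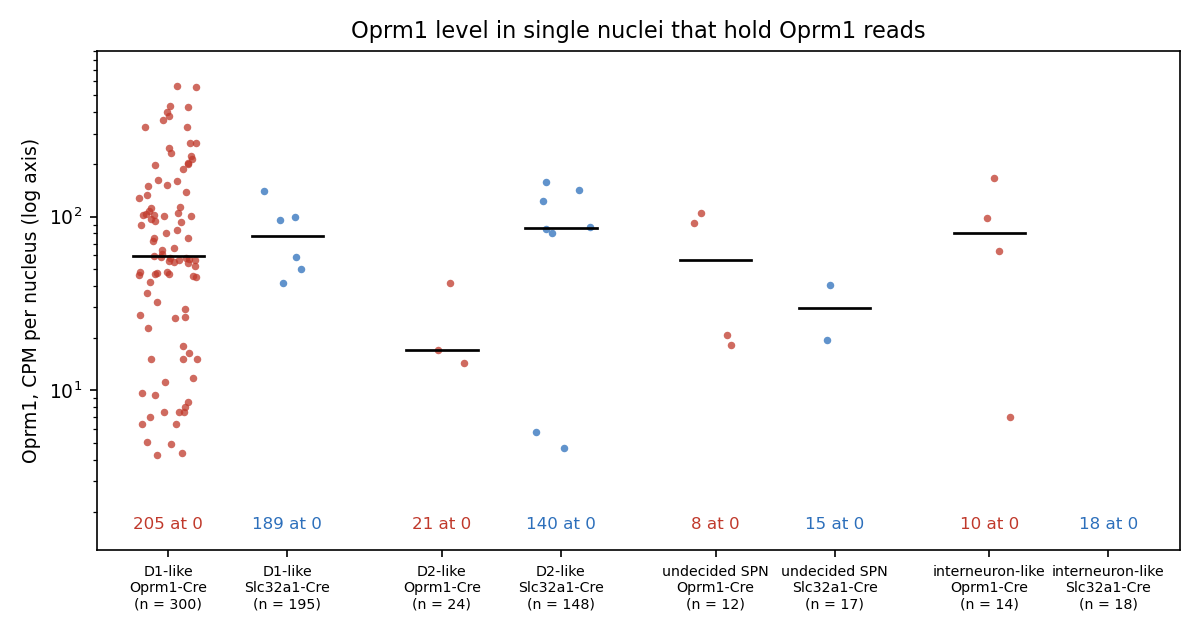
Each point is 1 nucleus that held at least 1 read of Oprm1, by class and plate, with its level in CPM on a log axis; the black line is the median of those nuclei, and the number below gives the nuclei with no read. The Oprm1-Cre D1-like points spread from 4.26 to 565.9 CPM, and the Slc32a1-Cre D1-like column holds 6 points.

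Oprm1 was rare in Slc32a1-Cre D1-like nuclei, and none of those that held it had under 11 reads. The reads were 11, 14, 15, 17, 19 and 24 in 6 nuclei, or 3.08% of the class (1.14 to 6.58), which gave 41.4 to 139.97 CPM per nucleus. Summed over the class, 100 reads made 2.82 CPM (2.30 to 3.44), and at equal depth 5 nuclei, or 2.58% (0.842 to 5.91), held a read. The levels of these 6 nuclei fell inside the range of the nuclei with reads in the Oprm1-Cre plate, so the plates differed in how many nuclei held Oprm1 and overlapped in how much each held.

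With 5 CPM added to both sums, the log2 ratio of Oprm1 in D1-like nuclei, Oprm1-Cre over Slc32a1-Cre, was 2.50. Only 6 of 9765 genes with at least 10 CPM in either plate had a higher ratio, and 14.2% of those genes lay above 0.5 while 11.9% lay below -0.5. The cluster that held the most D1-like nuclei differed between plates: cluster 1, led by Pdyn and Col6a1, held 38% of the class in the Oprm1-Cre plate and 2.56% in the other, and cluster 0, led by Drd1 and Xist, held 6% and 67.7%. With 1 CPM added in place of 5 the ratio was 3.39 and with 20 CPM it was 1.37, so the size of the ratio rests on the amount added.

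D2-like nuclei held few reads of Oprm1 in either plate. In the Oprm1-Cre plate 3 of 24 nuclei held 2, 2 and 7 reads, which made 2.67 CPM (1.33 to 4.77) and 12.5% of nuclei (2.66 to 32.4). In the Slc32a1-Cre plate 8 nuclei, or 5.41% of the class (2.36 to 10.4), held 1, 1, 14, 16, 18, 19, 22 and 29 reads, which made 4.05 CPM (3.36 to 4.85), and at equal depth 4.73% of nuclei (1.92 to 9.50) held a read. Drd2 and Penk are among the markers that named the class, and all 11 of these nuclei had at least 25 Drd2 reads and 1861 to 6945 Penk reads, with at most 2 reads of Drd1.

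Within the Oprm1-Cre plate the log2 ratio of D1-like over D2-like nuclei was 2.53 for Oprm1, and 1.08% of 9879 genes had a higher one (28.7% of genes above 0.5, 19.6% below -0.5). Within the Slc32a1-Cre plate it was -0.21, with limits from the counting intervals of -0.43 and 0.01. Oprm1 was under 10 CPM in both classes there, so the second ratio describes a low level. Between plates, the log2 ratio in D2-like nuclei was -0.24, again with Oprm1 under 10 CPM in both. The classes thus differed in how far apart the plates lay, a difference that was not tested.

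Interneuron-like nuclei of the Oprm1-Cre plate held Oprm1 in 4 of 14 nuclei, and those of the Slc32a1-Cre plate in 0 of 18. The 4 nuclei held 1, 16, 30 and 44 reads, for a summed 31.9 CPM (25.7 to 39.2) and 28.6% of nuclei (8.39 to 58.1). The nucleus with 16 reads held 5783 reads of the neuropeptide Sst and 13556 of Npy, marks of somatostatin interneurons. The other 3 nuclei, with 30, 44 and 1 reads, held reads of Th (up to 290), the enzyme that starts catecholamine synthesis, of the receptor gene Kit (61 to 413) and of the interneuron factor Lhx6 (up to 404). At least 10 Th reads stood in 11 of the 14 interneuron-like nuclei of this plate, 3 of them with Oprm1, and in 4 of the 18 of the other plate. For the 0 of 18 nuclei of the Slc32a1-Cre plate, a limit of 3 counts allows up to 16.7% of nuclei with a read and a level up to 0.778 CPM, and the exact 95% upper limits are 18.5% and 0.957 CPM.

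SPN nuclei that were neither D1-like nor D2-like held 35 reads in 4 of 12 nuclei of the Oprm1-Cre plate, or 19.9 CPM (13.8 to 27.6), and 9 reads in 2 of 17 nuclei of the Slc32a1-Cre plate, or 3.14 CPM (1.43 to 5.96). The nucleus with the most, 20 reads, held 1584 reads of Penk, and Drd1 reads as well. In order of summed level, the D1-like and interneuron-like nuclei of the Oprm1-Cre plate stood first, and the undecided SPNs of that plate came next. The interneuron-like and undecided levels rest on 4 nuclei each, so this order is a description only. The shares of nuclei with a read were 31.7% (26.4 to 37.3), 28.6% (8.39 to 58.1) and 33.3% (9.92 to 65.1), with intervals that overlapped. The Slc32a1-Cre D2-like, undecided and D1-like nuclei and the Oprm1-Cre D2-like nuclei followed in summed level, from 4.05 to 2.67 CPM, each with an interval that overlapped its neighbour's. Nuclei left unnamed, 5 and 3, held 0 reads of Oprm1.

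**Figure D2:**
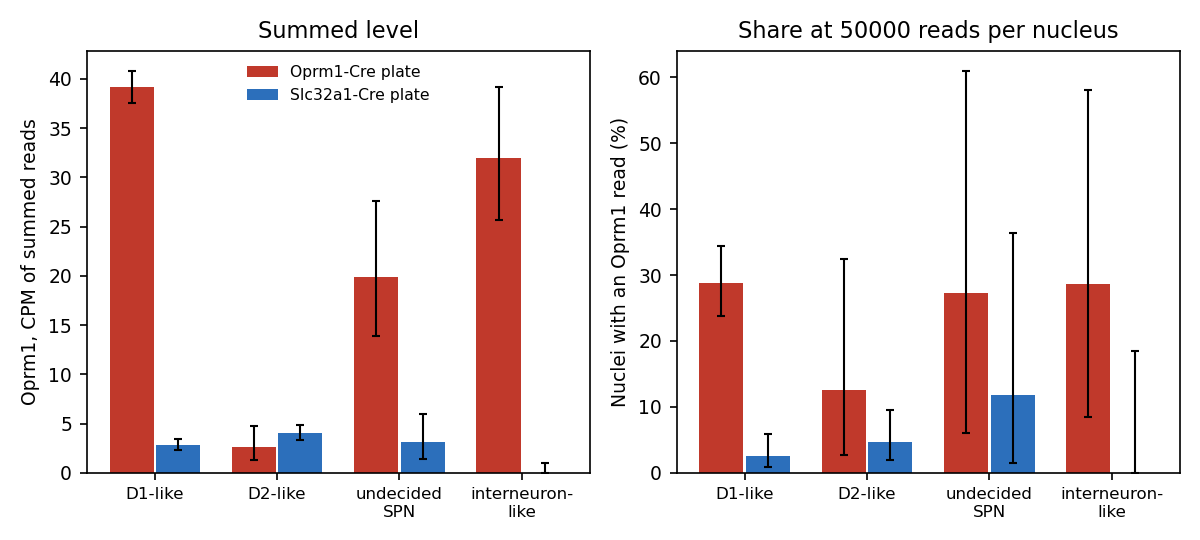
The left panel gives Oprm1 as CPM of the summed reads of a class, the right panel the share of its nuclei with a read at 50000 reads per nucleus, by plate, with exact 95% intervals for counting error only. The D1-like bars of the left panel stand at 39.1 and 2.82 CPM, and the interneuron-like bars of the Slc32a1-Cre plate are at 0 in both panels.

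Most of the 300 Oprm1-Cre D1-like nuclei held no Oprm1 read, and the values that follow describe how nuclei with and without it differed at equal depth. The 86 nuclei with a read after thinning had a median of 202120 reads before it, and the nuclei without one had 159250. Among the latter, 9 nuclei had held a read before thinning. The median number of genes at equal depth was 3229 with Oprm1 and 3276.5 without. The share of nuclei with Oprm1 at equal depth was 21.3%, 24.3%, 24.3% and 45.3% from the shallowest to the deepest quartile of these nuclei, so the sets differed in original depth, and list medians are given below also with that difference weighted out.

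Of 9811 genes with at least 10 CPM in either set, Oprm1 left out, 1353 (13.8%) were above 0.5 on the log2 scale in nuclei with Oprm1 and 1396 (14.2%) were below -0.5, with a median of 0.02 over all genes. These shares are the background against which each list below is read. A log2 ratio of 0.5 is only a mark of size here, since nuclei of 1 sample allow no test.

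Of the opioid peptides, Pdyn was higher beside Oprm1 and Penk was not. Pdyn, the precursor of the dynorphins that act on the kappa opioid receptor, was at 2144 CPM with Oprm1 and 1247 CPM without, a log2 ratio of 0.78, and was read in 93% and 88.7% of nuclei. Penk, the precursor of the enkephalins that act on the mu and delta receptors, was at 144.7 and 153.3 CPM, a log2 ratio of -0.08. Pomc, the precursor of beta-endorphin, was at 1.63 and 2.08 CPM, and Pnoc, the precursor of nociceptin, had no read in either set, so neither was measured.

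Of the other opioid receptors, the 2 that were measured did not differ past 0.5. The kappa receptor Oprk1 was at 161.6 CPM with Oprm1 and 158.9 CPM without (log2 ratio 0.02), in 34.9% and 37.3% of nuclei. The nociceptin receptor Oprl1 was at 124.4 and 116.98 CPM (log2 ratio 0.09), in 26.7% and 26.9% of nuclei. Reads of these receptors were thus about as frequent in nuclei with Oprm1 as in nuclei without. The delta receptor Oprd1 was at 0 CPM with Oprm1 and 4.43 CPM without, below the 10 CPM minimum.

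Genes that carry the receptor's signal mostly lay within 0.5 of each other in the 2 sets, as did 7062 of all 9811 genes measured. Of 13 G protein subunits listed, 11 were measured, 2 were higher and 0 lower, with a median log2 ratio of 0.10. The higher ones were the inhibitory alpha subunit Gnai3 (54.9 CPM with Oprm1, 28.9 CPM without, log2 ratio 0.82) and the gamma subunit Gng3 (53.3 and 31.7 CPM, 0.67). The main Go alpha subunit gene, Gnao1, was at 199.1 and 242.3 CPM (log2 ratio -0.28), and Gnai1 at 59.8 and 47.9 CPM (0.29).

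Regulators that end or dampen receptor signalling numbered 14, of which 13 were measured, 1 was higher and 2 were lower, with a median of 0.08. Grk3, a kinase that phosphorylates active receptors, was at 12.6 CPM with Oprm1 and 3.96 CPM without (log2 ratio 0.97), but in only 2.33% and 0.943% of nuclei. Its relative Grk2 was lower with Oprm1, at 13.3 against 30.7 CPM (-0.97). Rgs19, which speeds G protein inactivation, was at 10.9 and 47.1 CPM (-1.71) although it was read in 10.5% and 12.3% of nuclei, so the difference lay in how many reads a nucleus held. The arrestins Arrb1 (log2 ratio 0.06) and Arrb2 (0.27) and the striatal regulator Rgs9 (-0.32) lay within 0.5.

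Effectors numbered 18, of which 13 were measured, 0 were higher and 2 were lower, with a median of 0.03. The kinase Mapk3 was at 16.7 CPM with Oprm1 and 33.2 CPM without (log2 ratio -0.81), and the calcium channel subunit Cacna1a at 21.4 and 33.4 CPM (-0.54). Adenylyl cyclase 5, Adcy5, the main striatal form, was at 1053 and 1098 CPM (-0.06), and Ppp1r1b, the phosphatase regulator DARPP-32, at 1232 and 1193 CPM (0.05). The potassium channel subunits Kcnj3, Kcnj5 and Kcnj6 were below the minimum in both sets, and Kcnj9 was at 32.8 and 28.6 CPM (0.17). Over the 5 signalling groups 4 genes were higher and 4 lower.

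Patch genes were on the whole higher in nuclei with Oprm1. The patch list, which held no Oprm1, had 10 of 11 genes measured, 4 higher and 1 lower, with a median of 0.33 beside 0.02 over all genes. Nnat, a small membrane protein of neurons, was at 55.1 CPM with Oprm1 and 21.7 CPM without (log2 ratio 1.17), in 40.7% and 24.1% of nuclei. The transcription factor Nr4a1 had a log2 ratio of 0.64, in 31.4% and 30.2% of nuclei, and Lypd1 was at 50.9 and 34.1 CPM (0.52). Pdyn, described above as an opioid peptide gene, is also in this list (0.78). Tac1, the substance P precursor, was at 4141 and 3341 CPM (0.31), short of the mark. Bach2, a transcription factor, was the exception, at 12.3 and 29.8 CPM (-1.01).

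Matrix genes lay the other way. All 8 were measured, 0 were higher and 3 lower, with a median of -0.25. The ephrin receptor Epha4 was at 119.1 CPM with Oprm1 and 198.8 CPM without (log2 ratio -0.72), in 29.1% and 43.4% of nuclei. Id4, an inhibitor of helix-loop-helix factors, was at 15.3 and 27.1 CPM (-0.66), in 4.65% and 15.1% of nuclei. The guanine deaminase Gda was at 60.9 and 91.4 CPM (-0.55). Calb1, the calbindin often used to stain the matrix, was at 309.5 and 291.7 CPM (0.08), and the factor Ebf1 at 49.1 and 35 CPM (0.43). With the nuclei without Oprm1 weighted to the depth quartiles of those with it, the medians were 0.32 for patch and -0.28 for matrix, and weighted to their clusters 0.30 and -0.23. With Oprm1 status taken from all reads instead of equal depth the medians were 0.29 and -0.15. The patch and matrix lists were chosen with earlier results of these data known.

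**Figure D3:**
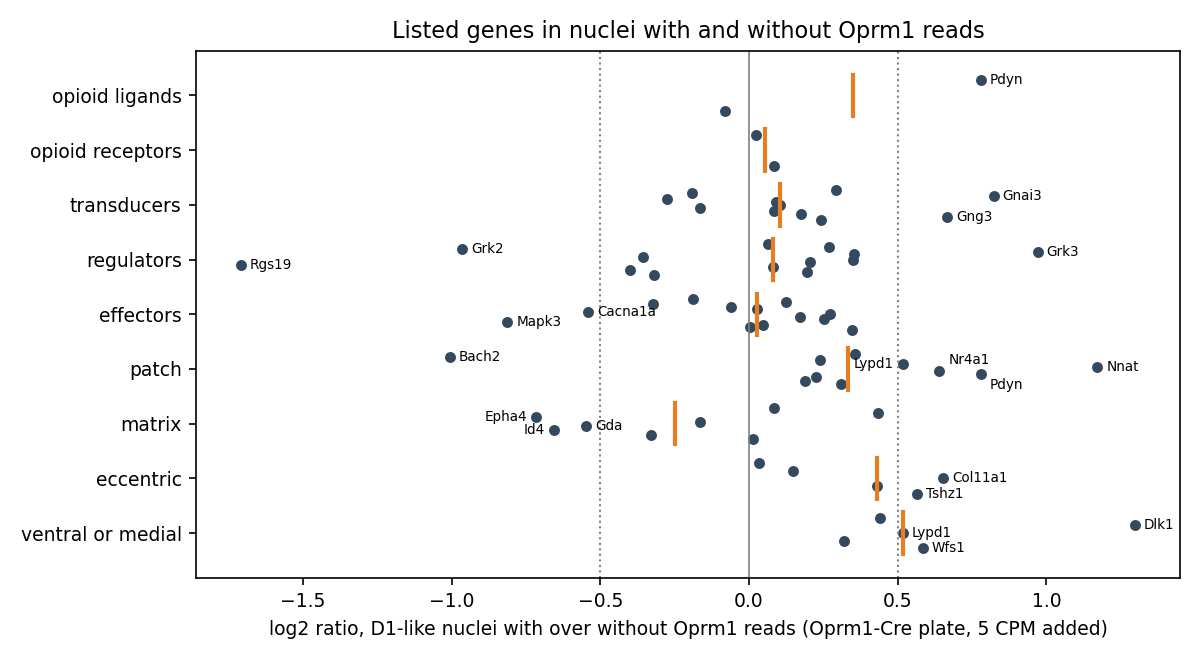
Each point is a measured gene of a list, placed by its log2 ratio between Oprm1-Cre D1-like nuclei with and without Oprm1 reads (5 CPM added, equal depth); the orange line is the list's median and dotted lines mark 0.5 and -0.5. The patch median stands at 0.33 and the matrix median at -0.25, and the opioid receptors Oprk1 and Oprl1 stand near 0.

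The same relation can be read along a score, the mean log2(CPM + 1) of the 11 patch genes less that of the 8 matrix genes, which used no Oprm1 reads. Its median was 2.44 in the nuclei with Oprm1, 1.32 in those without and -2.00 in Slc32a1-Cre D1-like nuclei. From the lowest to the highest quartile of Oprm1-Cre D1-like nuclei, 22.7%, 18.9%, 29.7% and 44% held a read of Oprm1 at equal depth, with levels of 25.9, 23.5, 33.8 and 56.3 CPM. The interval of the highest quartile, 32.5 to 55.9%, did not overlap that of the second, 10.7 to 29.7%, and overlapped those of the lowest and the third. Nuclei with Oprm1 were found at scores from -3.54 to 5.87, including 17 of 75 nuclei in the lowest quartile.

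**Figure D4:**
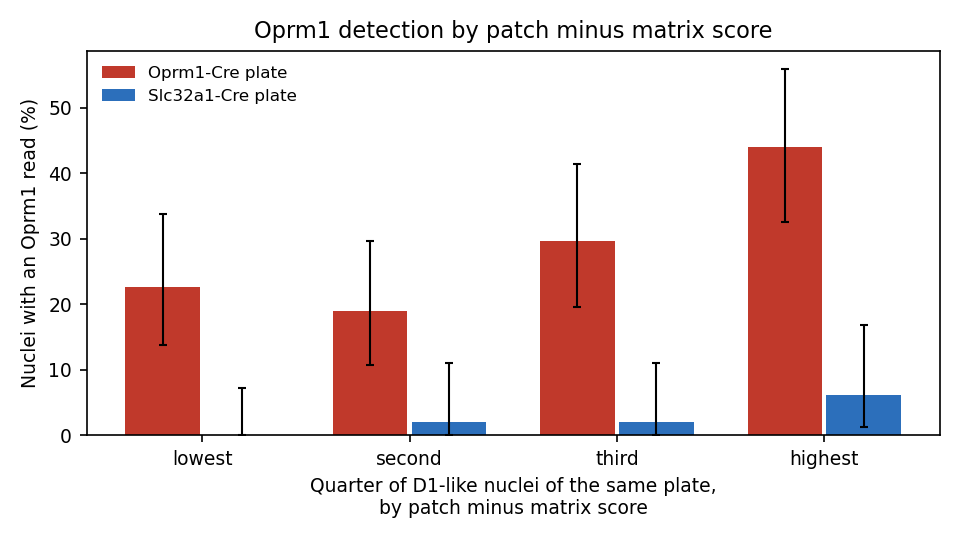
Bars give the share of D1-like nuclei with a read of Oprm1 at 50000 reads per nucleus, by quartile of the patch minus matrix score within each plate, with exact 95% intervals for counting error only. The Oprm1-Cre plate reaches 44% in its highest quartile, and the Slc32a1-Cre plate 6.12%.

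In the Slc32a1-Cre plate the quartiles held 0, 1, 1 and 3 D1-like nuclei with Oprm1 at equal depth, too few to order. The 6 D1-like nuclei with Oprm1 at full depth all held Pdyn, at 120 to 1123 reads, where 61.4% of the others held any. Over the lists, 7 of the 11 patch genes were read in a larger share of these 6 nuclei than of the others, 3 in a smaller and 1 in an equal share, and of the 8 matrix genes 1 was in a larger, 6 in a smaller and 1 in an equal share. Sema5b, a semaphorin of the patch list, was read in 4 of the 6 and in 16.4% of the others, and Id4 in 1 of the 6 and in 49.2%. Other members lay close together, with the matrix gene Epha4 in 5 of the 6 and 78.8% of the others and the patch gene Rasgrp1 in 5 of the 6 and 93.1%. For the 8 D2-like nuclei with Oprm1 in that plate the counts were 2 larger and 9 smaller of the 11 patch genes, and 7 larger and 1 smaller of the 8 matrix genes. These shares are at full depth, and no such count over all genes was set beside them. A sparse gene is easily unread in so few nuclei. Lypd1, for one, was read in 0 of the 8 D2-like nuclei and in 17.9% of the others. With 6 and 8 nuclei the counts are a description only and do not place these nuclei in patch or matrix. Sema5b, Id4, Epha4, Rasgrp1 and Lypd1 were named here after their values were seen.

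Other gene lists also stood higher beside Oprm1, and they share members with the patch list. Lypd1 is also in the ventral or medial list, and Nr4a1 in the immediate early list. Genes of eccentric SPNs, a D1-related group apart from patch and matrix, had 5 of 7 measured, 2 higher and 0 lower, with a median of 0.43. The higher ones were Col11a1 (log2 ratio 0.65), read in 4.65% of nuclei with Oprm1 and 4.25% without, and Tshz1 (0.56). Otof itself was read in 4.65% of nuclei with Oprm1 and 4.25% of nuclei without at full depth. Genes of ventral or medial striatum had 5 of 6 measured, 3 higher and 0 lower, with a median of 0.52. Among them Dlk1, an imprinted gene of the Notch ligand family, was at 44.2 CPM with Oprm1 and 15 CPM without (log2 ratio 1.3), in 14% and 6.60% of nuclei. The immediate early genes had 9 of 14 measured, 5 higher and 2 lower, with a median of 0.64.

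Markers of other cell types were counted in the same way. The 10 SPN markers were all measured and none passed 0.5 (median -0.09), and their summed level was 10306 CPM with Oprm1 and 11370 CPM without. Oligodendrocyte markers summed to 225.8 and 467.0 CPM (5 of 6 measured, 0 higher, 1 lower), those of oligodendrocyte precursors to 57.9 and 119.6 CPM (3 of 5 measured, all 3 lower, with Pdgfra, Cspg4, Olig1 and Olig2 at 0 beside Oprm1), and those of astrocytes to 53.7 and 100.9 CPM (2 of 7 measured, both lower, with Aqp4, Gfap and Agt at 0 beside Oprm1). Interneuron markers summed to 80.9 and 93.7 CPM, and excitatory, microglial, vessel and ependymal markers to at most 7.64 CPM in either set. Among the astrocyte and oligodendrocyte markers 1 of each list went the other way. The astrocyte marker Gja1, below the minimum, was at 7.21 CPM with Oprm1 and 1.70 CPM without. The oligodendrocyte marker Mog was at 12.8 and 8.11 CPM. The summed glial levels were lower in the set with Oprm1, and their part in the other differences was not tested.

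Clusters of Oprm1-Cre D1-like nuclei also differed in how many held Oprm1. The share at equal depth was 45.7% of 70 nuclei (33.7 to 58.1) in cluster 3, led by Pdyn, Col6a1 and Tac1, and 37.1% of 35 nuclei (21.5 to 55.1) in cluster 5, led by Mtpn and Klhl13. It was 25.4% (17.7 to 34.5) in cluster 1 and 14.8% of 61 nuclei (6.98 to 26.2) in cluster 4, led by Onecut2 and Srgap1. In cluster 0 it was 16.7% of 18 nuclei (3.58 to 41.4). The interval of cluster 3 lay above that of cluster 4. The median depth of these nuclei was 208840 reads in cluster 3, 267560 in cluster 5, 154600 in cluster 1, 126050 in cluster 4 and 215730 in cluster 0. Cluster 4 was lowest in both depth and share, and how far depth bears on these shares was not tested.

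Over all genes, those with the highest ratios beside Oprm1 were themselves sparse. Among genes whose share of nuclei differed the same way by at least 10 percentage points, Armcx5 stood first, at 82.3 CPM with Oprm1 and 21.7 CPM without (log2 ratio 1.71), in 30.2% and 17% of nuclei. Prrg3, a membrane protein with a Gla domain, was at 108.4 and 33.1 CPM (1.57), and Sos2, a Ras exchange factor, at 38.4 and 11.7 CPM (1.38). The receptor gene Gpr75 was at 112.1 and 41.1 CPM (1.34), and Depdc5, a subunit of the GATOR1 brake on mTORC1, at 54.2 and 18.7 CPM (1.32). The rest of the 15 highest were Prdm4, Eral1, Glmn, Carhsp1, Gltpd1, Twsg1, Acsf3, Syne4, Fndc9 and Scamp2, between 1.2 and 1.47.

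The lowest ratios were of the same kind. The zinc finger gene Plagl2 was at 1.40 CPM with Oprm1 and 25.9 CPM without (log2 ratio -2.27), in 4.65% and 15.6% of nuclei. Lactb2, a mitochondrial nuclease, was at 0.233 and 19.9 CPM (-2.25), and the tyrosine phosphatase Ptpn13 at 3.95 and 29.9 CPM (-1.96). Ptchd2 (-2.22), Cdc14b (-1.96), Lonrf1 (-1.76), Desi1 (-1.75), Hivep3 (-1.74), Rtfdc1 (-1.62) and Zfp87 (-1.61) made up the 10 lowest. By the rule that chose them, each was read in a smaller share of the nuclei with Oprm1.

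No gene followed Oprm1 closely from nucleus to nucleus. Over the Oprm1-Cre D1-like nuclei at equal depth and 8980 genes, Pearson r with Oprm1 of log2(thinned reads + 1) reached 0.25 at most, for Zdhhc16, and -0.24 at least, for X9430020K01Rik, which is weak in counts this sparse. Next came Glmn, Syt5 and Gaa (each 0.25), then Eral1 (0.22), Prrg3 and Ly6h (0.21), and Syp, Hpcal4 and Nnat (0.20). At the other end stood Pde10a (-0.24), Ncor1 (-0.23), Slk (-0.22) and Rgs9 (-0.21). The nuclei share a plate and their original depths differed, so these values describe this plate only.

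On the chromosome, the gene that overlaps Oprm1 moved with it between plates in D1-like nuclei. Ipcef1, which encodes a partner of the cytohesins, lies on the minus strand from 6885796 to 7052478 and overlaps Oprm1 up to 7038198. In D1-like nuclei it was at 15.5 CPM in the Oprm1-Cre plate, in 32 nuclei, and 1.5 CPM in the Slc32a1-Cre plate, in 1 nucleus, a log2 ratio of 1.66. In D2-like nuclei Ipcef1 was at 9.45 and 4.02 CPM in the same order of plates, while Oprm1 was at 2.67 and 4.05 CPM. Nothing in the sources used here says whether counting used strand, so reads of the 2 genes may not be told apart where they overlap. In the Oprm1-Cre plate 11 D1-like nuclei held reads of both, Ipcef1 was read at equal depth in 10.5% of nuclei with Oprm1 and 9.43% of those without, and its log2 ratio between those sets was 0.26.

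Within 1000000 bases of Oprm1 the table listed 16 other genes, of which 10 were measured in D1-like nuclei, 2 higher and 2 lower past 0.5 in the Oprm1-Cre plate, beside 14.2% higher and 11.9% lower over all genes in that comparison. Besides Ipcef1 the higher one was Rgs17, a regulator of Gi/o signalling, at 285.6 against 143.8 CPM (log2 ratio 0.97), in 72% and 44.6% of nuclei. The lower ones were Pcmt1 (134.5 and 208.04 CPM, -0.61) and Ginm1 (8.44 and 14.4 CPM, -0.53). Rgs17 did not follow Oprm1 within the plate, with a log2 ratio of 0.21 between nuclei with and without Oprm1.

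**Figure D5:**
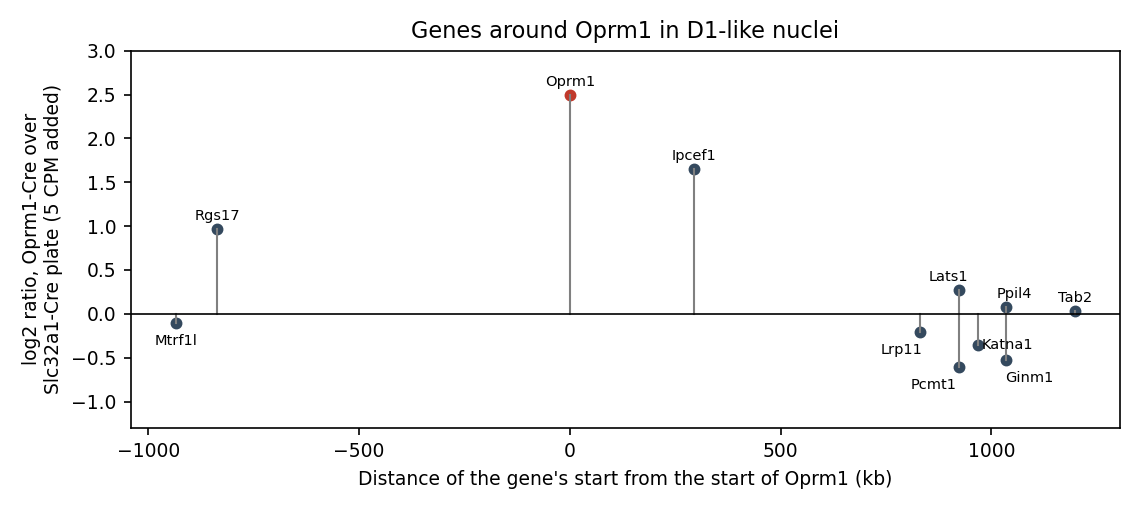
Each point is a gene measured in D1-like nuclei, placed by the distance of its start from that of Oprm1 in kilobases and by its log2 ratio between plates (5 CPM added). Oprm1 stands highest at 2.50, followed by Ipcef1 at 1.66 and Rgs17 at 0.97.

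The reporter entry eGFP could be set beside Oprm1 in the same nuclei. With all reads, eGFP was read in 55.8% of the 86 D1-like nuclei with Oprm1 (44.7 to 66.5) and in 31.6% of those without (25.4 to 38.3). At equal depth the shares were 30.2% (20.8 to 41.1) and 26.9% (21 to 33.4), with intervals that overlapped. Of the 48 and 67 nuclei with eGFP at full depth, 25 and 24 held 1 to 3 reads of it. From the shallowest to the deepest quartile of these nuclei, eGFP was read in 38.7%, 29.7%, 27.03% and 58.7% with all reads, and Oprm1 in 22.7%, 28.4%, 28.4% and 48%.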

How the data were processed

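The deposited values are read counts, not normalized, for each gene in each nucleus, and the authors' joint table was analysed, which held the same values as the tables per genotype. The submitters' processing notes name mm10, SAMtools and Seurat; the aligner, the counting tool, its annotation and its handling of strand were not given in the sources used here. The library kit, per the labels' protocols, was a stranded total-RNA kit meant for bulk RNA, and how a single nucleus was amplified was not stated. Columns were assigned by their names, and 0 columns were left unmapped. The gene tables use older symbols (Drd1 as Drd1a, Grk2 as Adrbk1, Grk3 as Adrbk2).

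Wells with at least 20000 reads on genes and 1000 genes were kept (a median of 169400 and 175340 reads per nucleus, from 22727 to 581310). They were clustered on 2000 genes of highest variance, 30 principal components and 15 neighbours with leidenalg 0.10.2 and igraph 0.11.9 at resolution 1, in Python 3.11.15 with pandas 2.3.3, numpy 2.4.6 and scipy 1.17.1. SPN-like nuclei had a D1-like or D2-like name when the mean log2(CPM + 1) of 7 D1 and 7 D2 markers differed by more than 2, and interneuron-like nuclei needed a score of at least 2 in a cluster led by their markers, a limit set with the data in view. No doublet caller was run; leaving out 74 possible doublets was an alternative.

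CPM of summed reads carries exact Poisson intervals and shares carry Clopper-Pearson intervals. Thinning used a fixed random seed. Genes were measured at 10 CPM or more in either group, and log2 ratios had 5 CPM added, which understates low genes. A contrast on simulated data was checked first. Named genes were all opioid ligands and receptors, Ipcef1, eGFP and class markers. The 15 highest and 10 lowest ratios and the 10 highest and 5 lowest correlations were named too. Of the G protein, regulator, effector, patch, matrix and eccentric lists, members past 0.5 and up to 3 within it were named. Of the ventral or medial and immediate early lists, not all members past 0.5 were named. Genes whose part in a result was noted afterwards (Eif2s3y, Xist and neighbours on the chromosome) were named with their values in view. The gene and the lists were chosen with earlier results of these data known. Gene positions came from GENCODE vM21 and upstream sequences from the RefSeq table; no protein was used here.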

Additional observations from a re-analysis of the deposited data

Results flagged for a closer look

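The log2 ratio of Oprm1 between D1-like and D2-like nuclei was 2.53 in the Oprm1-Cre plate and -0.21 in the Slc32a1-Cre plate, opposite in sign under the same contrast, but the limits from the counting intervals of the second, -0.43 and 0.01, included 0. Without the 5 nuclei with the most Oprm1 reads the second ratio was -0.06. The difference was not tested, since each plate is 1 sample. It rested on 11 reads in 24 D2-like nuclei of the first plate and on 6 and 8 nuclei with a read in the second.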

How the results depend on the processing

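Of the values recomputed under 22 alternative settings, 17 left their counting interval or, for counts of genes, moved by over 1.5 times, and no log2 ratio or list median changed sign. Within those limits, the matrix median ranged from -0.35 to -0.15 (-0.15 with Oprm1 status from all reads), the patch median from 0.26 to 0.47, the Slc32a1-Cre ratio of D1-like over D2-like from -0.40 to -0.06, and the Slc32a1-Cre D2-like share was 2.03% at 3 or more Oprm1 reads; leaving out Otof or Ipcef1 nuclei and weighting by cluster or depth were chosen after seeing the data and moved none. With every nucleus weighted alike, Oprm1 in Oprm1-Cre D1-like nuclei was 34.5 CPM. The log2 ratios of 2.50 between plates and 2.53 between classes became 3.39 and 3.45 with 1 CPM added and 1.37 and 1.38 with 20 CPM, with which 678 genes were higher and 710 lower beside Oprm1; with genes of at least 50 CPM these were 559 and 426, since fewer genes were compared. The share of D1-like nuclei with Oprm1 was 20% at 20000 reads per nucleus and 18.1% at 3 or more reads, where that of D2-like nuclei was 0.0%. Without the 5 nuclei with most reads of each class and plate, levels were 29.8 and 0.0 CPM in Oprm1-Cre D1-like and D2-like nuclei and 0.322 and 0.558 CPM in the Slc32a1-Cre classes, and the ratio between plates was 2.71. The alternative without an Otof-led cluster was not run because no cluster was led by Otof. No paired analysis was possible because each genotype is 1 sample, no animals are named and replicate numbers only follow accession order. Depth limits every count of Oprm1 under about 3 reads, and plate, animals, sex and genotype cannot be told apart.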
